A study of Mus musculus with 3 samples.

Results

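A fixed list of 10 genes of angiogenic factors and their receptors was read among the 18245 genes in the deposited table. The list does not hold every such gene in the table, and all 10 were found by gene symbol. They are the vascular endothelial growth factor (VEGF) ligands Vegfa, Vegfb, Vegfc and Pgf, the VEGF receptors Flt1 and Kdr, the angiopoietins Angpt1 and Angpt2, the angiopoietin-like gene Angptl4 and the hepatocyte growth factor gene Hgf. Their messenger RNA was measured by RNA sequencing in 3 kinds of cultured mouse cell with 3 libraries each. All came from hearts of adult C57BL/6 mice. CDC are cardiosphere-derived cells that received no inhibitor. They grew out of explants of ventricle epicardium (the outer layer of the heart) by way of floating spheres. CDC-EpiC is 1 epithelial clone, isolated by cloning cylinder after CDC had spent 2 weeks with 10 µM SB-431542, which blocks the TGF-beta receptor kinase ALK5. pEpiC are primary epicardial cells, freed by enzyme digestion of the dissected heart and cultured without the inhibitor. The study's methods also give CDC and pEpiC different culture media and dish coatings. Between pEpiC and CDC, the kind of cell thus cannot be told apart from its isolation and culture. Because CDC-EpiC is 1 clone, its libraries hold no variation between clones, and the clone and its inhibitor cannot be told apart. The extraction protocol counts as many separate samples per kind as there are libraries, whereas the study's methods name fewer biological replicates per condition. Whether the libraries of a kind came from separate animals or cultures is thus unknown, and p-values measure the spread between these libraries, which may be technical.

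VEGF ligands are secreted dimers that act on receptor tyrosine kinases, chiefly of endothelial cells. VEGF-A drives vessel growth through VEGFR2 (the product of Kdr), whereas VEGFR1 (Flt1) binds VEGF-A, VEGF-B and placental growth factor (Pgf) tightly and, in its soluble form, holds them away from VEGFR2. VEGF-C acts mainly on VEGFR3 (Flt4), the receptor of lymphatic growth. Angiopoietin-1 activates the receptor TIE2 (Tek) and steadies vessels, and angiopoietin-2 competes with it in many settings. ANGPTL4 inhibits lipoprotein lipase, and HGF, a factor made by mesenchymal cells, acts on the receptor MET. Epicardium and the cells derived from it are known sources of such factors for the growing coronary vessels.

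Library totals were 22008833 to 22756045 expected counts (reads estimated per gene), so that 3 counts correspond to 0.130 to 0.138 CPM, the counts per 1000000 counts after TMM normalisation used here as levels between kinds. In a bulk library, fewer cells of a type and less RNA per cell cannot be told apart. The 12 endothelial marker genes summed to 8.44 to 10.2 CPM in CDC, 8.60 to 10.4 CPM in CDC-EpiC and 7.45 to 10.1 CPM in pEpiC. At no more than 3 counts in every library of a kind were 6, 8 and 3 of the 12 genes in the same order. Of the defining endothelial genes, Cdh5 was at 0 counts in every CDC-EpiC library, and Sox17, Sox18 and Robo4 were at no more than 3 counts in every library of every kind. The pEpiC libraries held 5, 3 and 22 of Cdh5, against 12, 9 and 0 for CDC. Of 4 endothelial genes tested between these kinds, Vwf and Esam were higher in pEpiC (log2 2.18 and 1.19, adjusted p 0.000538 and 0.00646). Egfl7 was lower (log2 −1.56, adjusted p 4.48e-05), and Plvap did not pass (log2 0.16, adjusted p 0.478). The similar sums thus hide changes in opposite directions. The 8 epicardial markers summed to 681 to 709 CPM in CDC, 5787 to 6749 CPM in CDC-EpiC and 535 to 574 CPM in pEpiC, so that the label of pEpiC did not go with a higher sum than in CDC. Of these markers 3 were higher in pEpiC than in CDC (Wt1, Tcf21 and Lrrn4, log2 2.30, 3.01 and 0.92) and 5 lower (Upk1b, Upk3b, Krt19, Msln and Tbx18, log2 −4.90 to −0.86). Most of the sum in CDC-EpiC was Upk3b, Lrrn4 and Upk1b, at means of 2656, 2122 and 1162 CPM. In CDC-EpiC 6 of the 8 were higher than in CDC, and Tbx18 and Krt19 were lower (log2 −0.72 and −0.48). Against pEpiC 7 were higher there and Tcf21 was lower (log2 −1.87). The 12 macrophage markers reached 320 to 922 CPM in pEpiC against 72.6 to 74.4 CPM in CDC and 30.0 to 32.9 CPM in CDC-EpiC. At no more than 3 counts in every library were 6 of the 12 in CDC, 8 in CDC-EpiC and 0 in pEpiC. Between pEpiC and CDC, 10 of 11 tested were higher, and Cd14 did not pass (log2 −0.09, adjusted p 0.834). In CDC-EpiC against CDC, 1 of 4 tested was higher (Cd68, log2 2.75) and 3 were lower. Each of the 12 was 2.35 to 4.21 times as high in pEpiC library 1 as in the mean of the other pEpiC libraries. Over the same libraries the ratio of the 10 angiogenic genes was 0.331 to 1.21, and it was above 1 for Vegfc, Kdr and Angptl4 alone. CDC libraries 1 and 2 also held counts of some liver, blood and heart muscle genes that were at or near 0 in library 3. In library order there were 660, 599 and 1 of Alb, 523, 894 and 0 of Hba-a1 and 191, 190 and 0 of Myh6. Other such genes were not near 0 in library 3, with 642, 712 and 497 of Ahsg, 220, 238 and 172 of Tnnt2 and 49, 44 and 18 of Tnni3. The blood and liver markers summed to 23.3 to 139 CPM in CDC. Leaving out any 1 CDC library left 10 of the angiogenic genes past the threshold against pEpiC and 8 against CDC-EpiC.

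The sequences before the transcription starts of 4 ligand genes are shown because Vegfa, Vegfb, Vegfc and Hgf shared an order of levels, pEpiC over CDC over CDC-EpiC, and because the window shown for each ends just before the first base of its RefSeq gene. They are the 250 bases before the start on GRCm38.p6 (mm10), from RefSeq, written 5′ to 3′ along the gene, with GC boxes (GGGCGG or CCGCCC) in capitals. The Vegfa window is chr17:46032378-46032627 on the minus strand, that of Vegfb chr19:6987652-6987901 on the minus strand, that of Vegfc chr8:54077282-54077531 on the plus strand and that of Hgf chr5:16553245-16553494 on the plus strand.
Vegfa: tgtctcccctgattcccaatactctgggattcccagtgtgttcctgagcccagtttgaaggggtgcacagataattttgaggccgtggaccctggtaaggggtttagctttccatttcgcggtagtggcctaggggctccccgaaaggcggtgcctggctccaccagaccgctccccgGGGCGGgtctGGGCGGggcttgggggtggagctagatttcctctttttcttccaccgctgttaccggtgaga
Vegfb: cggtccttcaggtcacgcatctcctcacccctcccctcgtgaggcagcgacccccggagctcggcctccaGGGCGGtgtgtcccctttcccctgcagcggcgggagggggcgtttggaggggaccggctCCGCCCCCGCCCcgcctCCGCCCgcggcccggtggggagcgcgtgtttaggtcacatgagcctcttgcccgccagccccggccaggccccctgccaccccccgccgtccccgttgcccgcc
Vegfc: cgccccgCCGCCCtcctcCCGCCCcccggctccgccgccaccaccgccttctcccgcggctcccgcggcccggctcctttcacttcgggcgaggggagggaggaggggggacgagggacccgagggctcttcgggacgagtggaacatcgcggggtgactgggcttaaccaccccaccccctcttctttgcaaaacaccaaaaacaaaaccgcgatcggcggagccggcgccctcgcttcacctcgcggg
Hgf: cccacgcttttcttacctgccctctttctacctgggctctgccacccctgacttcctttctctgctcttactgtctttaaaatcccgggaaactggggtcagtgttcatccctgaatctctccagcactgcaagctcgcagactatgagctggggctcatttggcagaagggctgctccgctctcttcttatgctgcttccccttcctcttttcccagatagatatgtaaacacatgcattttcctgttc
RefSeq promoters were at hand for 7 of the 10 genes. The Vegfb window held 4 GC boxes, those of Vegfa and Vegfc held 2 each, and the Hgf window held 0. Among 32851 promoter windows of the same length, 32.7% held at least 1 GC box on either strand. The windows of Vegfb (76.4% G and C) and Vegfc (71.6%) lay above the upper quartile of all windows, 61.2%, whereas Vegfa was at 59.2% and Hgf at 50.8%. The TATA box TATAAA (12.4% of all windows) and the AP-1 letters TGANTCA (6.75%) were absent from all 4. The HIF core ACGTG, read on both strands, was absent from all 4 as well (16.6% of all windows), and GCGTG (28.2%) had 2 matches before Vegfb and 1 before Hgf. RefSeq gives a further start inside Vegfa and another inside Hgf, and the window before the inner Vegfa start (chr17:46025164-46025413) held 1 GC box, 1 ACGTG and 1 GCGTG, while that of Hgf (chr5:16553651-16553900) held none of these. These matches are letters in a window and not measured binding.

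**Figure D1:**
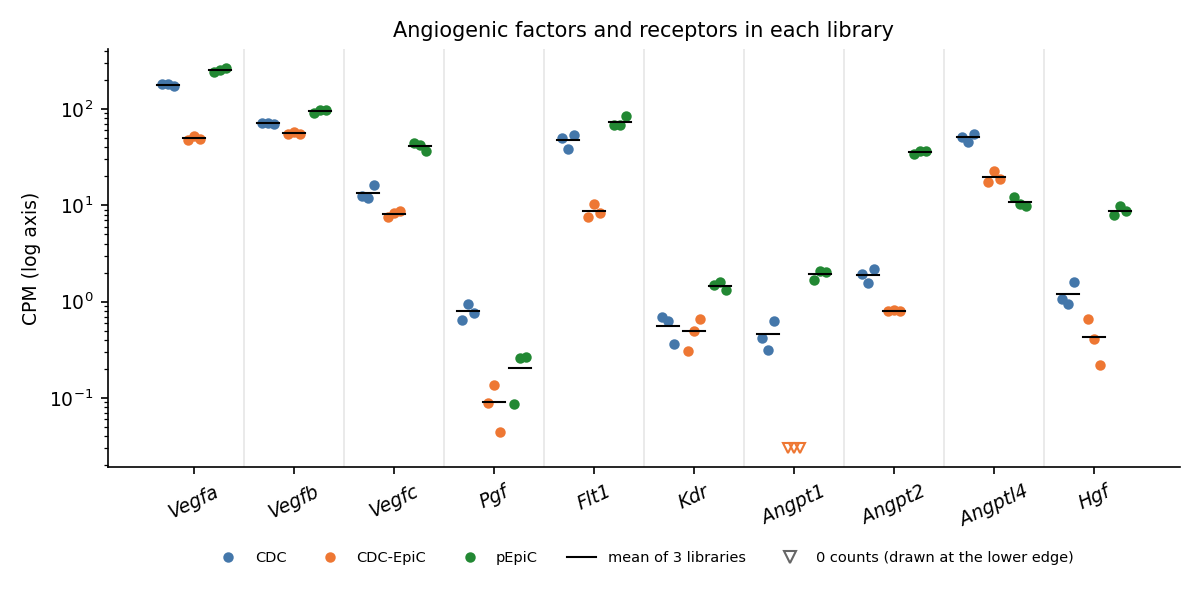
CPM of the 10 genes on a log axis, 1 point per library, with a bar at the mean of the 3 libraries of a kind. Angpt1 had 0 counts in each CDC-EpiC library, and pEpiC lay above both other kinds for every gene except Pgf and Angptl4.

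Levels between genes were compared per length, as the transcripts per 1000000 (TPM) that the authors deposited. Vegfb and Vegfa led in every kind. In CDC they reached 101 ± 2.86 and 96.1 ± 0.210 TPM (SD, n = 3), above 91.6% and 91.2% of all genes, followed by Angptl4 at 47.1 ± 5.83, Flt1 at 16.6 ± 3.24 and Vegfc at 12.8 ± 2.81. The next 5 genes were below 1 TPM in CDC, namely Pgf, Angpt2, Hgf, Angpt1 and Kdr. In pEpiC the leaders were Vegfa at 187 ± 10.1 and Vegfb at 186 ± 9.82 TPM, which lay within each other's spread. Behind them came Vegfc at 52.7 ± 5.19, Flt1 at 35.1 ± 5.34 and Angpt2 at 24.2 ± 1.22 TPM. In CDC-EpiC, Vegfb stood alone at 83.8 ± 1.5 TPM, with Vegfa at 28.0 ± 0.972, Angptl4 at 19.1 ± 2.37 and Vegfc at 8.11 ± 0.641. Among neighbours in these orders, the means were within their SDs for Vegfa and Vegfb in pEpiC, for Flt1 and Vegfc, Pgf and Angpt2, Angpt2 and Hgf, and Angpt1 and Kdr in CDC, and for Angpt2 and Hgf, Hgf and Kdr, and Kdr and Pgf in CDC-EpiC.

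All 10 genes were tested between pEpiC and CDC, and all 10 fell under the threshold of 0.05 for the adjusted p (edgeR quasi-likelihood, Benjamini-Hochberg), as did 78.3% of all tested genes. Of these, 8 were higher in pEpiC (39.8% of all genes) and 2 lower (38.5%), and the libraries of the kinds did not overlap for any of the 10 (81.5% of all genes). The median log2 change of the 10 genes was 0.95, against 0.02 over all genes. Between CDC-EpiC and CDC, 9 genes had enough counts for the test and 8 passed it (68.8% of all genes), all of them lower in CDC-EpiC (34.6%) and none higher (34.2%), with no overlap for 8 (72.1%). Their median log2 change was −1.37, against 0.00 over all genes, and Angpt1 was the gene left out. Between CDC-EpiC and pEpiC, 9 genes were tested, without Pgf, and all 9 passed (81.9% of all genes). In that comparison 8 were lower in CDC-EpiC (41.5%) and 1 higher (40.3%), the libraries did not overlap for 9 (84.0%) and the median log2 change was −2.35 against −0.02 over all genes, also with Angpt1 at its bound. The comparisons share libraries with each other, so each is given with its own values and their likeness is not a result.

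**Figure D2:**
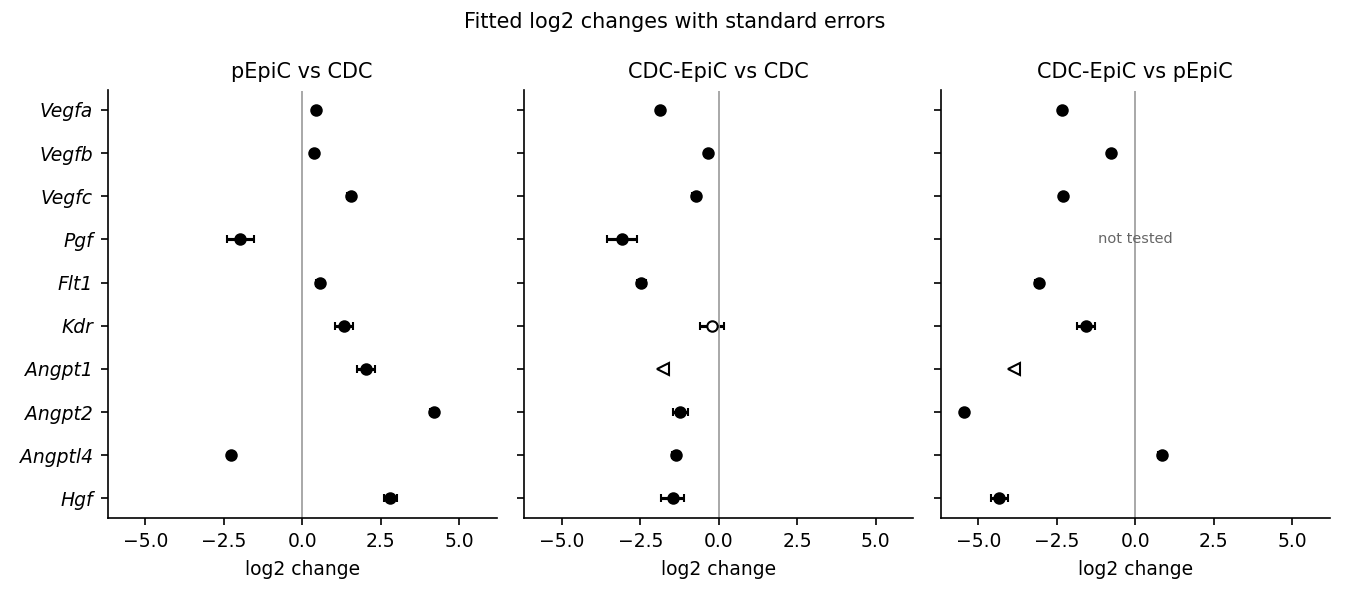
Fitted log2 changes of the 10 genes in the 3 comparisons, with standard errors as bars. Filled circles passed an adjusted p of 0.05, the open circle (Kdr in CDC-EpiC vs CDC) did not, and open triangles mark Angpt1 as a bound on its fall because CDC-EpiC held 0 counts.

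Vegfa, the main factor of vessel growth, lies on chromosome 17 from 46016993 to 46032377 (NCBI Gene 22339). It was at 182, 183 and 173 CPM in the CDC libraries, at 47.9, 52.4 and 49.0 in CDC-EpiC and at 240.3, 253 and 265 in pEpiC. The CDC-EpiC libraries were the lowest and no kinds overlapped. Vegfa was 3.62-fold lower in CDC-EpiC than in CDC (log2 −1.85, SE 0.08, adjusted p 1.13e-11) and 5.09-fold lower than in pEpiC (log2 −2.35, SE 0.06, adjusted p 3.39e-10). The difference between pEpiC and CDC was smaller, 1.37-fold (log2 0.45, SE 0.06, adjusted p 8.17e-05), and did not pass a test against a 1.5-fold change.

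Vegfb, whose product binds VEGFR1 but not VEGFR2, lies on chromosome 19 from 6982472 to 6987651 (NCBI Gene 22340) and had the smallest fitted changes of the 10 genes against pEpiC. Its CPM were 71.4, 71.0 and 70.2 in CDC, 54.5, 57.7 and 54.7 in CDC-EpiC and 90.6, 96.8 and 97.6 in pEpiC. No kinds overlapped, although the steps were small. Vegfb was 1.28-fold lower in CDC-EpiC than in CDC (log2 −0.35, SE 0.07, adjusted p 0.000355) and 1.30-fold higher in pEpiC than in CDC (log2 0.38, SE 0.06, adjusted p 0.000115). With a correction for transcript length, which bears on this short transcript, the latter log2 change was 1.02 and that of CDC-EpiC vs pEpiC was −1.39 in place of −0.77. As Vegfa fell further than Vegfb, the ratio of their TPM was 0.335 ± 0.00566 in CDC-EpiC, against 0.952 ± 0.0271 in CDC and 1.01 ± 0.0135 in pEpiC (SD, n = 3).

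Vegfc, the ligand of lymphatic growth, lies on chromosome 8 from 54077532 to 54186454 (NCBI Gene 22341). It was at 12.5, 11.9 and 16.3 CPM in CDC, at 7.61, 8.35 and 8.64 in CDC-EpiC and at 43.9, 42.2 and 36.3 in pEpiC. The pEpiC libraries stood well above the rest and CDC-EpiC lay just under CDC without overlap. Vegfc was 2.92-fold higher in pEpiC than in CDC (log2 1.54, SE 0.12, adjusted p 1.02e-06) and 1.66-fold lower in CDC-EpiC than in CDC (log2 −0.73, SE 0.13, adjusted p 0.000121). The latter change did not pass a test against a 1.5-fold change (adjusted p 0.142). Against pEpiC, CDC-EpiC was 4.98-fold lower (log2 −2.32, SE 0.09, adjusted p 7.83e-09).

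Pgf, placental growth factor, was the VEGF ligand with the fewest counts and lies on chromosome 12 from 85166637 to 85177785 (NCBI Gene 18654). Its counts were 14, 21 and 17 in CDC, 2, 3 and 1 in CDC-EpiC and 2, 6 and 6 in pEpiC. CDC was the highest kind without overlap, while CDC-EpiC and pEpiC overlapped. The ratio of CDC to CDC-EpiC over the summed counts was 8.85, with an exact 95% interval of 3.8 to 25.2 that covers counting error only, and the change passed the test (adjusted p 3.41e-05). CDC was 3.89 times pEpiC (2.12 to 7.59, adjusted p 0.00168). The ratio of pEpiC to CDC-EpiC was 2.28 (0.822 to 7.23), which was not resolved at this depth.

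The 4 ligands were also set against Vegfd, the remaining VEGF ligand gene, which had more TPM than any of them. Vegfd made up 68.8% ± 1.76 of the summed TPM of the 5 ligands in CDC, 55.9% ± 2.08 in CDC-EpiC and 58.8% ± 1.2 in pEpiC (SD, n = 3). Vegfb took 15% ± 0.796, 30.8% ± 1.65 and 18.0% ± 0.741 in the same order, and Vegfa 14.3% ± 1.16, 10.3% ± 0.473 and 18.1% ± 0.926. In CDC and pEpiC the shares of Vegfb and Vegfa were within each other's spread, and in CDC-EpiC they were not. Summed over the 5 ligands, TPM was 624 to 734 in CDC, 254 to 290.2 in CDC-EpiC and 1007 to 1073 in pEpiC, with no overlap. Between kinds these sums carry the scale of TPM. On it, the median log2 change over all genes was 0.41 in pEpiC vs CDC, 0.07 in CDC-EpiC vs CDC and −0.33 in CDC-EpiC vs pEpiC. In the count test Vegfd did not pass between pEpiC and CDC (log2 −0.12, adjusted p 0.141).

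**Figure D3:**
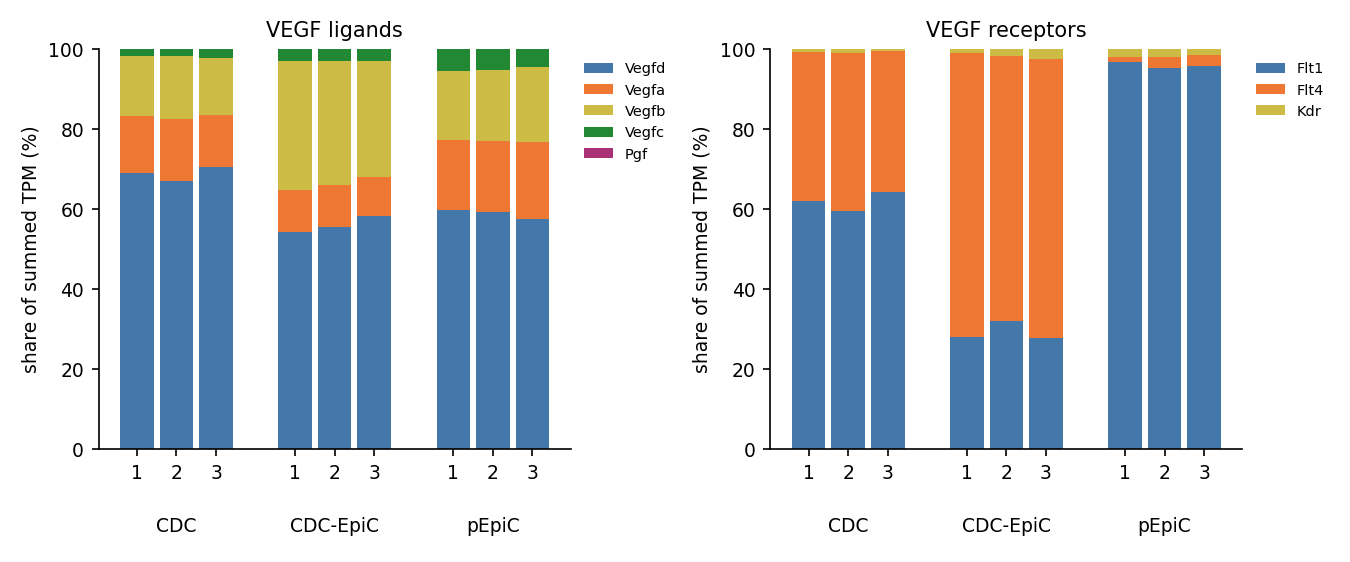
Share of the summed TPM of the 5 VEGF ligands (left) and of the 3 VEGF receptors (right) held by each gene, 1 bar per library. Vegfb holds 29.0% to 32.3% of ligand TPM in CDC-EpiC and at most 18.8% in the other kinds, and Flt4 replaces Flt1 as the leading receptor in CDC-EpiC.

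Flt1, the gene of VEGFR1, was the more abundant member receptor and lies on chromosome 5 from 147561604 to 147726438 (NCBI Gene 14254). It was at 50.5, 38.4 and 54.2 CPM in CDC, at 7.48, 10.3 and 8.33 in CDC-EpiC and at 67.9, 68.2 and 84.3 in pEpiC. The clone was far below both other kinds, and CDC did not reach pEpiC. Flt1 was 5.51-fold lower in CDC-EpiC than in CDC (log2 −2.46, SE 0.14, adjusted p 3.49e-10) and 8.47-fold lower than in pEpiC (log2 −3.08, SE 0.12, adjusted p 7.73e-09). The rise in pEpiC over CDC was 1.49-fold (log2 0.58, SE 0.12, adjusted p 0.00153). With the correction for transcript length it was 0.24 on the log2 scale and no longer passed (adjusted p 0.0657). Gene counts sum the membrane and the soluble form of the receptor, so the share of each is unknown.

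Kdr, the gene of VEGFR2 and the main signalling receptor of endothelial cells, lies on chromosome 5 from 75932827 to 75979072 (NCBI Gene 16542) and was near the floor of detection. Its counts were 15, 14 and 8 in CDC, 7, 11 and 15 in CDC-EpiC and 34, 37 and 30 in pEpiC. CDC and CDC-EpiC overlapped, and pEpiC was above both. Kdr was 2.51-fold higher in pEpiC than in CDC (log2 1.33, SE 0.29, adjusted p 0.00177) and 2.97-fold lower in CDC-EpiC than in pEpiC (log2 −1.57, SE 0.29, adjusted p 0.000614). Between CDC-EpiC and CDC the log2 change was −0.20 (SE 0.38, adjusted p 0.659), and the ratio of summed counts was 0.873 with an exact 95% interval of 0.529 to 1.44. The TPM of Flt1 was 89.2 ± 36.2 times that of Kdr in CDC, 18.4 ± 6.93 times in CDC-EpiC and 52.6 ± 9.51 times in pEpiC (SD, n = 3).

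Beside these receptors, the partner genes of VEGF signalling were Vegfd, the receptor gene Flt4 and the co-receptor genes Nrp1 and Nrp2, and all 4 were tested in each comparison. In pEpiC vs CDC, 2 were higher and 1 lower, in CDC-EpiC vs CDC 1 was higher and 3 lower, and in CDC-EpiC vs pEpiC 1 was higher and 2 lower. Over all genes, 39.8% and 38.5%, 34.2% and 34.6%, and 40.3% and 41.5% were higher and lower. Flt4 counts were 762, 666 and 762 in CDC, 459, 446 and 518 in CDC-EpiC and 27, 54 and 67 in pEpiC. Flt4 therefore went the opposite way to Vegfc in pEpiC, with a log2 change of −3.99 against CDC (SE 0.20, adjusted p 5.91e-08) beside 1.54 for the ligand. Of the summed TPM of the 3 receptors, Flt1 held 61.8% ± 2.41 in CDC, 29.2% ± 2.25 in CDC-EpiC and 95.8% ± 0.763 in pEpiC, and Kdr held 0.757% ± 0.237, 1.76% ± 0.669 and 1.86% ± 0.307. Nrp2, a co-receptor for VEGF-C, was higher than in CDC in both other kinds (log2 2.63 in pEpiC and 2.89 in CDC-EpiC). Nrp1, a co-receptor for VEGF-A, fell with it in the clone (log2 −1.39 against CDC, adjusted p 3.41e-09). Vegfd was lower in CDC-EpiC than in CDC (log2 −1.67, adjusted p 3.05e-10) and did not pass the test between pEpiC and CDC (log2 −0.12, adjusted p 0.141).

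**Figure D4:**
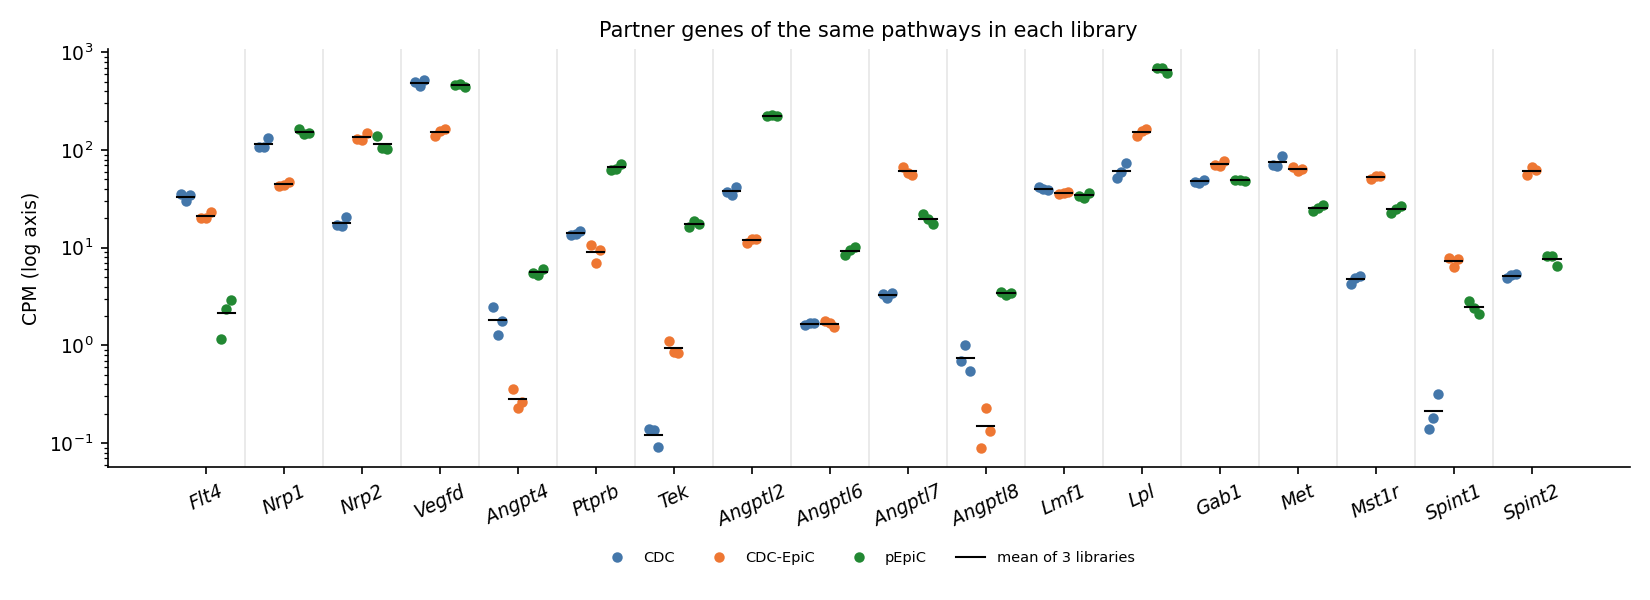
CPM on a log axis of the 18 partner genes that were tested in all 3 comparisons, 1 point per library, with a bar at the mean of the 3 libraries of a kind. Tek has 2 or 3 counts in each CDC library and 377 to 434 in pEpiC, and Flt4 is lowest in pEpiC.

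Angpt2, the context-dependent ligand of TIE2, showed the largest change among the 10 genes between pEpiC and CDC and lies on chromosome 8 from 18690263 to 18741562 (NCBI Gene 11601). It was at 1.94, 1.54 and 2.17 CPM in CDC, at 0.796, 0.817 and 0.798 in CDC-EpiC and at 34.2, 36.3 and 36.8 in pEpiC. The kinds were far apart and did not overlap, and each CDC-EpiC library held 18 counts. Angpt2 was 18.3-fold higher in pEpiC than in CDC (log2 4.20, SE 0.11, adjusted p 8.58e-10), 44.3-fold lower in CDC-EpiC than in pEpiC (log2 −5.47, SE 0.10, adjusted p 6.01e-11) and 2.35-fold lower in CDC-EpiC than in CDC (log2 −1.23, SE 0.24, adjusted p 0.000313).

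Angpt1, the activating ligand of TIE2, lies on chromosome 15 from 42424667 to 42676977 (NCBI Gene 11600) and moved in the same order at a lower level. Its counts were 9, 7 and 14 in CDC, 0 in each CDC-EpiC library and 39, 48 and 46 in pEpiC. The clone was without a read of the gene. Angpt1 was 4.07-fold higher in pEpiC than in CDC (log2 2.03, SE 0.29, adjusted p 8.76e-05). Taking 3 counts per library as the floor, CDC-EpiC was at least 3.40-fold lower than CDC and at least 14.4-fold lower than pEpiC. The change from CDC was not tested under the count filter and passed without it (adjusted p 0.000208). In TPM, Angpt2 exceeded Angpt1 by 4.60 ± 0.796 times in CDC and by 21.3 ± 1.66 times in pEpiC (SD, n = 3).

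The partners of the angiopoietins were the receptor genes Tek and Tie1, the phosphatase gene Ptprb, whose product opposes TIE2, and the ligand gene Angpt4. Of these, 3 were tested, and all 3 were higher in pEpiC than in CDC. In CDC-EpiC vs CDC 1 was higher and 2 lower, and in CDC-EpiC vs pEpiC all 3 were lower, beside 39.8% of all genes higher in the first comparison, 34.2% higher and 34.6% lower in the next and 41.5% lower in the last. Tek counts were 3, 3 and 2 in CDC, 25, 19 and 19 in CDC-EpiC and 377, 434 and 403 in pEpiC. The ratio of pEpiC to CDC over the summed counts was 145 (exact 95% interval 73.4 to 337) and that of CDC-EpiC to CDC was 7.71 (3.68 to 18.6). Receptor and ligands therefore rose together in pEpiC, whereas in the clone Tek was above and Angpt2 below its level in CDC. Ptprb rose by 2.2 on the log2 scale in pEpiC against CDC (SE 0.08, adjusted p 4.46e-09), and Angpt4 was lower in the clone than in CDC (log2 −2.67, SE 0.35, adjusted p 5.95e-06). Tie1, the co-receptor of TIE2, had at most 6 counts in any library. The 7 pericyte markers, genes of cells that also make angiopoietin-1, summed to 300 to 356 CPM in CDC, 67.0 to 81.7 CPM in CDC-EpiC and 1258 to 1314 CPM in pEpiC. Most of that sum was Pdgfrb, a gene of mesenchymal cells in general, at 301 ± 30.0, 67.8 ± 7.47 and 1225 ± 29.7 CPM (SD, n = 3). All 4 of the markers tested between pEpiC and CDC were higher in pEpiC, but Rgs5 had 8, 5 and 12 counts in CDC beside 9, 8 and 9 in pEpiC, Kcnj8 had 10, 8 and 11 beside 7, 6 and 4, and Higd1b had at most 1 count in any library. In CDC-EpiC against CDC, 1 of 3 tested was higher (Kcnj8) and 2 were lower. The part of pericytes in these differences was not tested.

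Angptl4, an inhibitor of lipoprotein lipase that fasting and low oxygen are known to induce, was the only gene of the 10 that was lowest in pEpiC. It lies on chromosome 17 from 33774900 to 33781575 (NCBI Gene 57875). Its CPM were 51.5, 45.7 and 54.6 in CDC, 17.3, 22.6 and 18.9 in CDC-EpiC and 12.2, 10.3 and 9.90 in pEpiC. No kinds overlapped. Angptl4 was 4.82-fold lower in pEpiC than in CDC (log2 −2.27, SE 0.10, adjusted p 1.76e-08) and 2.59-fold lower in CDC-EpiC than in CDC (log2 −1.37, SE 0.10, adjusted p 1.13e-08). It was 1.81-fold higher in CDC-EpiC than in pEpiC (log2 0.86, SE 0.12, adjusted p 8.12e-05).

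Its partners were the other angiopoietin-like genes, lipoprotein lipase (Lpl) and genes of lipase maturation and transport. In pEpiC vs CDC, 6 of 7 tested were higher and 1 lower, in CDC-EpiC vs CDC 2 of 6 were higher and 2 lower, and in CDC-EpiC vs pEpiC 1 of 7 was higher and 5 lower. The shares of all genes higher and lower were 39.8% and 38.5%, 34.2% and 34.6%, and 40.3% and 41.5%. Lpl, the enzyme that ANGPTL4 inhibits, was at 52.0, 59.1 and 73.4 CPM in CDC, at 140.3, 156 and 164 in CDC-EpiC and at 688, 685 and 610.4 in pEpiC. Its order was the reverse of that of Angptl4, with log2 changes of 3.38 in pEpiC (SE 0.12, adjusted p 5.61e-09) and 1.31 in CDC-EpiC (SE 0.11, adjusted p 4.28e-08) against CDC. Angptl7 was the partner with the largest rise in the clone (log2 4.20 against CDC, adjusted p 1.12e-13), and Angptl8 fell there (log2 −2.29, adjusted p 0.000391). Angptl1 rose most in pEpiC (log2 4.07, adjusted p 2.96e-07), at 111, 104 and 135 counts against 9, 5 and 5 in CDC. Lmf1, a lipase maturation factor, was the partner that was lower in pEpiC in the count test (log2 −0.28, adjusted p 0.0025). Its mean TPM went the other way, at 40.3 in CDC and 47.3 in pEpiC.

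Hgf, the gene of the MET ligand, lies on chromosome 5 from 16553495 to 16619439 (NCBI Gene 15234). It was at 1.06, 0.953 and 1.59 CPM in CDC, at 0.663, 0.409 and 0.222 in CDC-EpiC and at 7.85, 9.80 and 8.63 in pEpiC. The pEpiC libraries were the highest by far, and the clone, at 15, 9 and 5 counts, was the lowest. The 5 fibroblast markers, genes of mesenchymal cells, summed to 5455 to 6844 CPM in CDC, 3625 to 4271 in CDC-EpiC and 12964 to 14489 in pEpiC, with 4 of 5 higher in pEpiC than in CDC and 2 higher and 3 lower in CDC-EpiC than in CDC, and their part in the level of Hgf was not tested. Hgf was 7.05-fold higher in pEpiC than in CDC (log2 2.82, SE 0.19, adjusted p 4.55e-07), 2.77-fold lower in CDC-EpiC than in CDC (log2 −1.47, SE 0.36, adjusted p 0.0022) and 20.1-fold lower in CDC-EpiC than in pEpiC (log2 −4.33, SE 0.26, adjusted p 1.63e-07).

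The partners of HGF were its receptor Met, the related receptor Mst1r, proteases that activate HGF, the inhibitors Spint1 and Spint2 that hold those proteases back, the adaptor gene Gab1 and Mst1, the gene of the MST1R ligand. In pEpiC vs CDC, 4 of 7 tested were higher and 1 lower, in CDC-EpiC vs CDC 4 of 5 were higher and 1 lower, and in CDC-EpiC vs pEpiC 5 of 6 were higher and 1 lower, where 39.8%, 34.2% and 40.3% of all genes were higher and 38.5%, 34.6% and 41.5% lower. Met was at 69.7, 67.9 and 87.4 CPM in CDC, 67.4, 60.6 and 63.7 in CDC-EpiC and 23.9, 25.5 and 27.1 in pEpiC. It was lower in pEpiC than in CDC, where its ligand was higher (log2 −1.60, SE 0.10, adjusted p 2.14e-07) and, by little and like its ligand, in CDC-EpiC (log2 −0.24, SE 0.09, adjusted p 0.0368). In TPM, Hgf was 0.852 ± 0.0992 times Met in pEpiC, 0.0413 ± 0.00451 times in CDC and 0.0174 ± 0.00820 times in CDC-EpiC (SD, n = 3). Spint2, the partner with the most TPM in CDC-EpiC and on average over the kinds, rose in CDC-EpiC (log2 3.57 against CDC, adjusted p 2.09e-13), as did Spint1 (log2 5.05, adjusted p 1.52e-10) and Mst1r (log2 3.46, adjusted p 1.72e-13). The activating protease genes St14, Hgfac and Hpn were below the count filter in CDC-EpiC vs CDC, as was Mst1. Over summed counts, CDC was 6.81 times CDC-EpiC for St14 (exact interval 2.02 to 35.8) and 2.51 times for Hpn (1.28 to 5.22). For Hgfac the ratio was 5.79 (1.67 to 30.8), but the libraries overlapped, at 9, 8 and 0 against 0, 2 and 1 counts. Mst1 was not resolved (1.53, 0.363 to 7.38). St14 had 9, 4 and 7 counts in CDC, 2, 0 and 1 in CDC-EpiC and 25, 25 and 23 in pEpiC.

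Over all 26 partner genes listed, 15 of 21 tested were higher and 3 lower in pEpiC than in CDC (median log2 2.15), 8 of 18 were higher and 8 lower in CDC-EpiC than in CDC (median −0.07), and 7 of 20 were higher and 11 lower in CDC-EpiC than in pEpiC (median −1.69). Of all genes tested, 39.8% were higher and 38.5% lower, 34.2% higher and 34.6% lower, and 40.3% higher and 41.5% lower in the same comparisons, and the medians were 0.02, 0.00 and −0.02.

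Hypoxia-inducible factors are known activators of Vegfa, Flt1 and Angptl4, and their genes and targets were therefore read beside the 10 genes. Of 8 genes of the factors and their hydroxylases, 2 were higher and 3 lower in pEpiC than in CDC, 5 were higher and 3 lower in CDC-EpiC than in CDC, and 4 were higher and 4 lower in CDC-EpiC than in pEpiC. The shares past the threshold over all genes were 78.3%, 68.8% and 81.9%, in nearly equal parts higher and lower, for these genes and for the targets that follow. Hif1a, which had the most TPM in CDC and pEpiC but less than Egln2 in CDC-EpiC, was lower in the clone than in CDC (log2 −1.07, adjusted p 2.82e-07), with a log2 change of −0.04 in pEpiC that did not pass (adjusted p 0.736). Epas1, which encodes HIF-2 alpha, was higher than in CDC in pEpiC (log2 2.70, adjusted p 1.43e-09) and in CDC-EpiC (log2 2.15, adjusted p 2.04e-11). Of 13 other hypoxia targets, 5 were higher and 6 lower in pEpiC, 4 higher and 9 lower in CDC-EpiC against CDC, and 3 higher and 5 lower in CDC-EpiC against pEpiC. The targets did not move as one. Adm, the gene of the vessel-active peptide adrenomedullin, had the order of Vegfa with wider steps, with log2 changes of 2.38 in pEpiC and −3.26 in CDC-EpiC against CDC (adjusted p 1.01e-09 and 1.61e-12). Ero1l and P4ha1 had that order too, with log2 changes against CDC of 0.43 and 0.44 in pEpiC and −2.06 and −1.17 in CDC-EpiC. Slc2a1, a glucose transporter gene, was lower in both (log2 −1.02 and −1.08), and Car9 and Ndrg1 were higher in the clone than in CDC (log2 3.31 and 1.05). In pEpiC, Ndrg1 had the largest fall of the targets against CDC (log2 −2.26, adjusted p 1.64e-08), and Car9 did not pass (log2 0.03, adjusted p 0.914).

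PPAR receptors are known activators of Angptl4. Of 9 genes of this list tested in pEpiC vs CDC, 3 were higher and 4 lower, of 8 in CDC-EpiC vs CDC 1 was higher and 3 lower, and of 9 in CDC-EpiC vs pEpiC 2 were higher and 6 lower, beside 39.8% and 38.5%, 34.2% and 34.6%, and 40.3% and 41.5% of all genes. Pparg was lower than in CDC in pEpiC (log2 −0.73, adjusted p 0.000149) and in CDC-EpiC (log2 −1.56, adjusted p 6.97e-08), as Angptl4 was. In CDC-EpiC vs pEpiC they went opposite ways, with log2 −0.87 for Pparg (adjusted p 0.000166) and 0.86 for Angptl4 (adjusted p 8.12e-05). Against CDC, Ppard fell in pEpiC (log2 −0.21, adjusted p 0.0172) but rose in the clone (log2 0.53, adjusted p 4.47e-05). Ppara rose in pEpiC (log2 1.12, adjusted p 0.000407) and did not pass for the clone (log2 0.20, adjusted p 0.437). Mean TPM of Ppard was 36.8, 56.0 and 45.0 for CDC, CDC-EpiC and pEpiC, beside 7.80, 2.75 and 6.77 for Pparg. The part of any receptor in the level of Angptl4 was not tested. Fabp4, a further target, rose in pEpiC (log2 4.22, adjusted p 2.59e-09), where Angptl4 was lowest.

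Genes of secreted angiogenesis inhibitors were mostly lower in the clone. Of 7 tested in each comparison, 5 were higher and 2 lower in pEpiC than in CDC (median log2 1.65), 1 was higher and 6 lower in CDC-EpiC than in CDC (median −2.65), and all 7 were lower in CDC-EpiC than in pEpiC (median −3.65). Of all genes, 39.8% were higher and 38.5% lower in the first of these comparisons, 34.6% were lower in the next and 41.5% in the last. Thbs1, the gene of thrombospondin-1, had the most TPM of them in CDC and CDC-EpiC and was at 5612, 4545 and 5585 CPM in CDC, 384, 645 and 462 in CDC-EpiC and 2019, 2272 and 2239 in pEpiC. It was lower than in CDC in both (log2 −1.31 and −3.41, adjusted p 4.6e-07 and 8.24e-11). Serpinf1, the gene of PEDF, had the most TPM in pEpiC and rose there (log2 2.57, adjusted p 1.31e-09), and Ism1 fell most in the clone (log2 −5.22, adjusted p 1.37e-13). Col18a1, the source of endostatin, was the single gene of the list that was higher in the clone than in CDC (log2 0.61, adjusted p 1.79e-05).

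Genes with a profile most like that of each factor were sought among 9473 genes of at least 10 CPM on average, by the root mean square (RMS) difference of centred log2(CPM + 1) over the 9 libraries. For Vegfa the nearest was the Notch ligand gene Jag1 (RMS 0.0552), followed by Rbpms2 and Pmp22, against an RMS of 1.0 for Vegfa around its own mean. For Vegfb it was Ppp1r15a (0.0504), and for Vegfc Rnf130 (0.0914), followed by Atrnl1 and the transcription factor gene Zeb2. Flt1 was most like the matrix and cell surface genes Gpc4, Col5a2 and Fbln5 (0.180 to 0.184). Angpt2 was nearest to Acvrl1 (0.163), the gene of the endothelial receptor ALK1, and Angptl4 to Cx3cl1 (0.108) and the glycolytic enzyme gene Eno1 (0.155). For Hgf the nearest was Dennd4a (0.132). With 3 kinds, any gene of the same order and step size comes near, and these names are a description without a test.

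Changes that involve pEpiC varied with transcript length, by 0.449 on the log2 scale per doubling of length against CDC and by −0.442 for CDC-EpiC vs pEpiC, but by 0.0178 for CDC-EpiC vs CDC. On the TPM scale, which has another centre, the median over all genes became 0.41 in pEpiC vs CDC, with 74.5% of calls higher in pEpiC against 50.8% in the count test. For CDC-EpiC vs pEpiC the median was −0.33, with 32.9% of calls higher against 49.3%. The counts of the 10 genes higher and lower were the same on the TPM scale as in the count test in all 3 comparisons. Those of the partner genes were not the same in pEpiC vs CDC. There 18 were higher and 2 lower on the TPM scale, against 15 and 3 in the count test.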

How the data were processed

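RNA was selected on oligo(dT), and libraries were sequenced in 3 kinds of cell with 3 libraries each. Per the submitters' processing notes, HISAT2 2.0.4, Bowtie2 2.2.5, RSEM 1.2.12, DESeq2 1.4.5 and the build mm10 were used, without a role or order given. The annotation and the use of strand are not given in the sources used here, so counts of overlapping genes are uncertain. The authors deposited expected counts, of which 30.3% were not whole, and FPKM and TPM per gene, which they scaled by transcript length and library. The 9 columns of means that they deposited were not used.

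Expected counts were rounded. Each comparison was fitted on its own 6 libraries in edgeR 4.0.16 (R 4.3.3) with filterByExpr (minimum count 10, minimum total 15), TMM normalisation, glmQLFit and glmQLFTest, and p-values were adjusted by Benjamini-Hochberg over all genes tested (threshold 0.05). The step was tested on simulated counts. TPM served for levels between genes. Alternatives were DESeq2 1.42.0, limma 3.58.1 on log2(TPM + 1), log2(TPM + 0.1) and log2(FPKM + 1), RLE or no scaling factors, other filters, 1 fit of all libraries, a length offset, a replicate block, a test against a 1.5-fold change and leaving out each library. Intervals and floors (3 counts) cover counting error only. Libraries of a kind differed beyond sampling noise (chi-square over its degrees of freedom 4.72 to 21.8). The genes and lists were chosen with earlier results of these data known. The genes named are the 10 factors and receptors and, from each other list, some of those with the largest rise, the largest fall or the highest TPM. Others were named after their values were seen, and not every extreme of a list is named.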

Additional observations from a re-analysis of the deposited data

How the results depend on the processing

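The number of the 10 genes past the threshold was within 1.5 times of its value under every alternative run, at 7 to 10 for pEpiC vs CDC, 6 to 9 for CDC-EpiC vs CDC and 6 to 9 for CDC-EpiC vs pEpiC. The lowest counts came from requiring at least 10 counts in every library, which left fewer genes to test, and, in both comparisons with CDC, from the test against a 1.5-fold change. Of the single genes, Flt1 in pEpiC vs CDC lost its call under the length offset (log2 0.24, adjusted p 0.0657). The test against a 1.5-fold change ended the calls of Vegfa, Vegfb and Flt1 in pEpiC vs CDC and of Vegfb and Vegfc in CDC-EpiC vs CDC. The only direction that reversed was that of Kdr in CDC-EpiC vs CDC, which had not passed: without the first CDC-EpiC library its log2 change was 0.035 (adjusted p 0.947), the highest of the values without 1 library, the lowest of which was −0.49 without the third CDC-EpiC library. The cause was not tested. Leaving out each library in turn left 10, 8 and 9 of the 10 genes past the threshold in the 3 comparisons. Library numbers did not pair the kinds, as the correlations of same-numbered libraries were −0.0953 to 0.19, and a replicate block gave the same 10, 8 and 9 genes in number. Genes near the floor, Pgf, Kdr, Angpt1 and, in the clone, Hgf and Angpt2, are limited by counts, and with 1 clone no statement reaches other clones.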

Other observations

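The transcript length implied by the deposited counts and FPKM differed between kinds for Flt1. It was 5025 to 5124 bases in CDC and 4942 to 5185 bases in pEpiC, against 5405 to 6285 bases in CDC-EpiC, without overlap of the clone with the other kinds. The other genes with this measure in all kinds ranged over the 9 libraries from 3275 to 3318 bases for Vegfa, 1230.2 to 1245 for Vegfb, 1880.1 to 1882 for Vegfc and 1901 to 1904 for Angptl4. This length is an average over the transcripts to which reads were assigned, and which Flt1 transcripts made the difference was not tested.

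CDC library 3, in which Alb, Hba-a1 and Myh6 were at 0 or 1 count against 190 to 894 in the other CDC libraries, had 0.546 (Kdr) to 1.73 (Angpt1) times their mean CPM over the 10 genes. The ratio was 1.57 for Hgf, 1.34 for Vegfc, 1.25 for Angpt2, 1.22 for Flt1, 1.12 for Angptl4, 0.963 for Pgf, 0.947 for Vegfa and 0.986 for Vegfb. The part of blood, liver or heart muscle RNA in these ratios was not tested.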
